A study of Mus musculus with 18 samples.

Results

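The genes described here encode the 7 ligands that bind the epidermal growth factor (EGF) receptor, the receptor itself and the receptor's feedback inhibitor. The ligand genes are Areg (amphiregulin), Ereg (epiregulin), Btc (betacellulin), Epgn (epigen), Hbegf (heparin-binding EGF-like growth factor), Tgfa (transforming growth factor alpha) and Egf. Egfr encodes the receptor and Errfi1 the inhibitor. These 9 genes were taken by name from a mouse count table of 41325 entries, and they were chosen with earlier results of these data known. All 9 were present and passed the filter on low counts. RNA was measured in cumulus cells, which surround the oocyte, and in mural granulosa cells, which line the follicle wall. Both cell types came from ovaries of mice of WT genotype at 0, 4 and 12 h after human chorionic gonadotropin (hCG), which stands in for luteinizing hormone (LH) at the LH receptor and sets off ovulation. Each of the 6 groups (cumulus cells at 0, 4 and 12 h, mural cells at 0, 4 and 12 h) had 3 libraries. No group's strain, age or number of animals, and no hormone given ahead of hCG, is named in the sources used here.

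EGF-like ligands are made as precursors in the cell membrane, and proteases of the ADAM family cut them so that the released part can bind the receptor of the same or a nearby cell. The bound receptor is a tyrosine kinase that signals through RAS and ERK, and among the genes it switches on are inhibitors that limit its own activity. In the follicle, amphiregulin, epiregulin and betacellulin are known to carry the LH signal, which mural cells receive, on to the cumulus cells, where it sets off expansion of the matrix around the oocyte and, through the oocyte, the return to meiosis.

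Library totals were 32.2 M to 47.9 M counts (M for mega), and levels are counts per M counts (CPM), after TMM scaling of the totals. A count of 3 in 1 library, the most that a count of 0 allows, was worth 0.0585 to 0.0999 CPM. Groups were taken from the titles: of the 9 libraries titled as cumulus cells, 8 carry a cell-type entry that says mural granulosa cell and 1 carries none. The LH receptor gene Lhcgr, a mural marker, averaged 8.52, 2.60 and 4.02 CPM in the cumulus libraries at 0, 4 and 12 h and 662, 339 and 547 CPM in the mural libraries, in the order of the titles. The 3 cumulus markers did not follow the titles: their sum was 296 to 459, 75.9 to 248 and 66.1 to 83.3 CPM in cumulus libraries at 0, 4 and 12 h, and 397 to 457, 319 to 488 and 246 to 395 CPM in mural libraries. The 8 granulosa markers were present in both cell types and summed at 0 h to 8357 to 11630.5 CPM in cumulus and 18309 to 23379 CPM in mural libraries, and at 12 h to 2873 to 3581 and 3795 to 4586 CPM. The 15 oocyte markers summed, by replicate, to 491, 2244 and 2327 CPM in cumulus cells at 0 h and to 2635, 1383 and 8371 CPM at 4 h. At 12 h the cumulus sums were between 36.5 and 41.7 CPM, with Zp1 and Figla at 0 counts. In mural libraries this sum was between 168 and 733 CPM. Replicate 1 of the cumulus cells at 0 h and replicate 3 of those at 4 h stood apart from their groups in that sum. Values without them are given for several tests of the 9 genes. None are given for the ligand shares, the lists of other genes or the search for similar patterns. Of the 4 endothelial markers, Cdh5 averaged 164 CPM in cumulus and 127 CPM in mural libraries at 12 h, against 4.01 and 17.6 CPM at 0 h. Kdr averaged 0.386, 3.15 and 20.6 CPM in cumulus and 7.67, 35.2 and 9.34 CPM in mural libraries at 0, 4 and 12 h. Pecam1 and Tek had lower means at 12 h than at 0 h in both cell types. The 5 erythroid markers summed in mural libraries to 87.6 to 145, 448 to 699 and 380 to 732 CPM at 0, 4 and 12 h. Areg, Ereg, Btc and Epgn, described below, peaked in mural cells at 4 h and were lower at 12 h. The mitochondrial share of counts was 8.49 to 12.8%, 4.35 to 6.20% and 2.52 to 2.98% in cumulus libraries at 0, 4 and 12 h, and 3.54 to 7.57% in mural libraries. The 5 theca cell markers summed to 426 to 523, 224 to 229 and 160 to 175 CPM in mural libraries at 0, 4 and 12 h. In cumulus libraries they summed to 58.1 to 69.8, 86.2 to 156 and 212 to 244 CPM. Cyp17a1, Aldh1a1 and Insl3 had lower mural means at 12 h than at 0 h, and Mgp and Ptch1 higher ones. Cyp17a1 averaged 114, 27.2 and 4.73 CPM in mural libraries at these times. The part of these markers and shares in the results was not tested.

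Areg, Ereg, Btc and Epgn lie in 1 cluster of 375.5 kb on chromosome 5 (GENCODE M21 annotation of GRCm38): Epgn at chr5:91027464-91035215, Ereg at chr5:91074622-91093646, Areg at chr5:91139599-91148432, all on the plus strand, and Btc at chr5:91357261-91402994 on the minus strand. Errfi1 is at chr4:150853919-150868892, Tgfa at chr6:86195223-86275719, Egfr at chr11:16752203-16918158, all on the plus strand, and Egf at chr3:129677565-129755316 on the minus strand. RefSeq promoter windows (GRCm38.p6, the 250 bases before a start) were matched for 7 of the 9 genes, not for Ereg and Hbegf. The windows below, from 4 genes, are shown because they held a searched motif, whatever the change of the gene. Capitals mark TGACGTCA, the letters of the cAMP response element, and its core TGACG where that stands alone, printed as CGTCA where it lies on the other strand. They also mark TATAAA, the TATA box.
Areg chr5:91139349-91139598 plus strand: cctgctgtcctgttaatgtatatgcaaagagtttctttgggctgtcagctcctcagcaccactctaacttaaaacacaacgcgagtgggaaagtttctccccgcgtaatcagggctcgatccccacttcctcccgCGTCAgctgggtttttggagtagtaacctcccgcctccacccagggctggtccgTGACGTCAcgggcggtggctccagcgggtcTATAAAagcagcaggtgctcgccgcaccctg
Errfi1 chr4:150854820-150855069 plus strand: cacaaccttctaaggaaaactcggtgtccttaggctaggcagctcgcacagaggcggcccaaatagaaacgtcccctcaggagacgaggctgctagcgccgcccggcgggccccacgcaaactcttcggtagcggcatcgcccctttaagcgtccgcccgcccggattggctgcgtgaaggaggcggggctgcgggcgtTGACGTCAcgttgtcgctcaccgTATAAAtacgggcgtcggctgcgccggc
Epgn chr5:91027267-91027463 plus strand: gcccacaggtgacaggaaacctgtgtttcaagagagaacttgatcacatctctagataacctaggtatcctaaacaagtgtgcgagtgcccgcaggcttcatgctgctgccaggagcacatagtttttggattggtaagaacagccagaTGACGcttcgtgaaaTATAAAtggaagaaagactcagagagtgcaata
Btc chr5:91402995-91403244 minus strand: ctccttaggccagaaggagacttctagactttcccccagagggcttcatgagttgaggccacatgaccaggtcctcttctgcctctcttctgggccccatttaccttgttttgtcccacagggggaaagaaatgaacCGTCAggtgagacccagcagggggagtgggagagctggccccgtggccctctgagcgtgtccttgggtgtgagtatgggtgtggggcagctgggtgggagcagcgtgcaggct
The Areg and Errfi1 windows shared an arrangement, with TGACGTCA at bases -61 to -54 and TATAAA at -31 to -26 before the Areg start, and at -51 to -44 and -28 to -23 before the Errfi1 start. That Errfi1 start is the second of 2 and lies inside the gene, in an intron of the GENCODE models, where the window also overlaps an exon of the antisense gene 1700045H11Rik. The window of the first Errfi1 start (chr4:150853546-150853795), nearest the GENCODE gene start, held no match of any motif searched. Epgn had TGACG at -101 to -97 and TATAAA at -86 to -81 of the RefSeq start, and the sequence above ends where the GENCODE gene begins. Btc had 1 TGACG, read on the other strand, at -113 to -109, and Areg a further one at -115 to -111. Both strands were searched. Of 32851 mouse windows of the same length, 1.55% held TGACGTCA, 17.8% held TGACG, which lies inside it, and 12.4% held TATAAA. The Egf, Tgfa and Egfr windows held none of these, and no window of the 7 genes held TGANTCA or AAGGTCA, which 6.75% and 4.08% of mouse windows held. A match is a match of letters and not a bound site.

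Of the ligands, Areg, Ereg, Btc and Epgn were at or under 3.62 CPM in every library of 0 h and rose in both cell types after hCG. Hbegf fell, Tgfa rose at 12 h, and Egf was at 16.0 CPM or less in every library. A change is called where the adjusted p of edgeR's quasi-likelihood test is under 0.05, and log2 changes are given ± SE with 3 libraries a group. In bulk RNA, fewer cells of a type and less RNA per cell cannot be told apart.

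**Figure D1:**
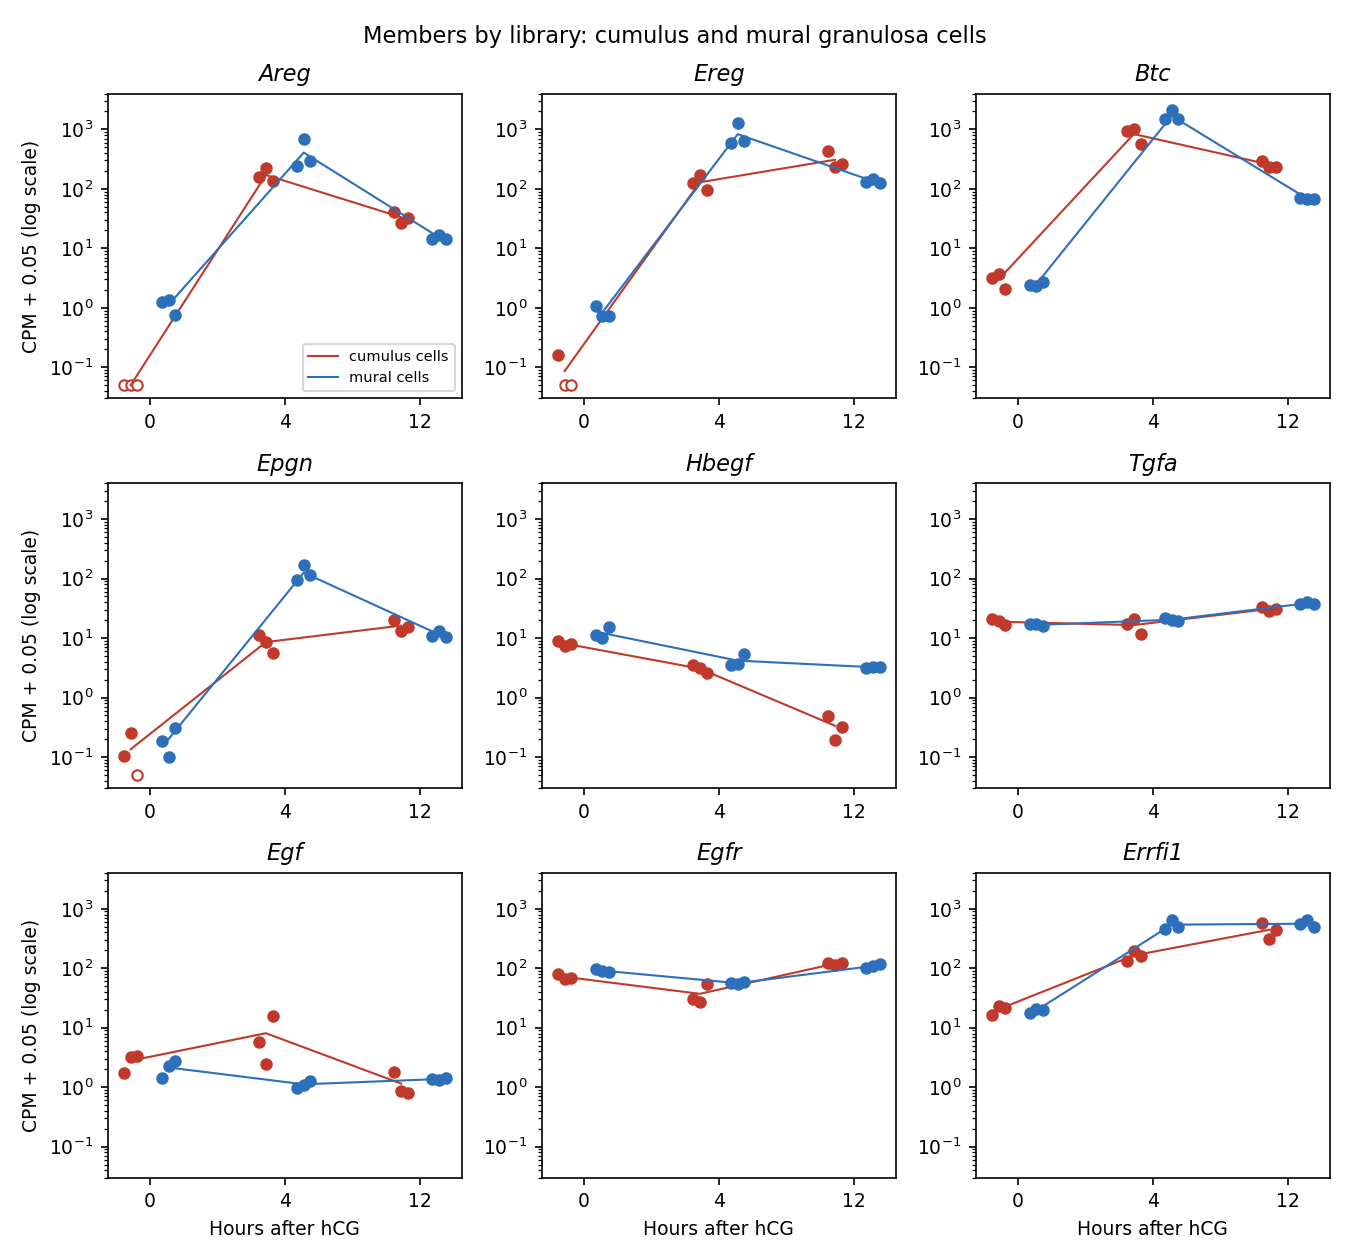
Level of each of the 9 genes in each of the 18 libraries (CPM plus 0.05 on a log axis, open points for a count of 0) at 0, 4 and 12 h after hCG, with cumulus cells in red on the left and mural cells in blue on the right of each time and lines joining group means. The 4 genes of the chromosome 5 cluster peak at 4 h in mural cells, while Ereg and Epgn in cumulus cells are higher at 12 h than at 4 h.

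Areg encodes a ligand that binds EGFR with low affinity. Cumulus cells, by replicate, had 0 counts of Areg in all 3 libraries at 0 h, then 157, 222 and 134 CPM at 4 h and 41.5, 26.4 and 32.0 CPM at 12 h. Mural cells had 1.21, 1.31 and 0.699 CPM at 0 h, then 245, 681 and 292 CPM at 4 h and 14.4, 16.8 and 14.6 CPM at 12 h. No 2 groups overlapped: mural cells at 4 h were highest, then cumulus cells at 4 h and 12 h, mural cells at 12 h and 0 h, and cumulus cells at 0 h. Against a floor of 3 counts over the cumulus group of 0 h, the group mean of Areg in cumulus cells was at least 7406-fold higher at 4 h (adjusted p = 2.48e-10). At 12 h this mean was at least 1443-fold higher. These bounds hold for group means and not for each library. In mural cells it rose by 8.56 ± 0.45 on the log2 scale at 4 h (adjusted p = 4.49e-10), and by 7.98 without replicate 2 of 4 h, the highest library. At 12 h it was still 3.83 ± 0.39 higher than at 0 h. Between 4 and 12 h it fell by 2.36 ± 0.33 in cumulus and by 4.73 ± 0.36 in mural cells.

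Ereg encodes a ligand of EGFR and of ERBB4. In cumulus cells there were 4, 0 and 0 counts of Ereg at 0 h, then 124, 168 and 94.4 CPM at 4 h and 428, 231 and 264 CPM at 12 h. In mural cells there were 1.01, 0.680 and 0.677 CPM at 0 h, then 581, 1275 and 631 CPM at 4 h and 132, 149 and 123 CPM at 12 h. So the time of the highest level differed: every cumulus library of 12 h lay above every cumulus library of 4 h, and every mural library of 12 h lay below every one of 4 h. Ereg rose by 11.88 ± 0.60 at 4 h and by 13.14 ± 0.60 at 12 h in cumulus cells, and by 10.01 ± 0.46 and 7.39 ± 0.42 in mural cells, on the log2 scale. The cumulus values rest on the 4 counts of replicate 1 at 0 h, without which that group is at 0 counts and has no fold. Without replicate 2 of 0 h they were 11.25 and 12.47. From 4 h to 12 h it rose by 1.26 ± 0.30 in cumulus cells (adjusted p = 0.00172) and fell by 2.62 ± 0.32 in mural cells. Ereg shares 141 exon bases with the antisense gene Gm19610, which had 351 to 729 counts in the cumulus and 1992 to 2684 counts in the mural libraries of 4 h. The library kit keeps strand but the strand setting of the counting is not given in the sources used here, so reads of this overlap cannot be told apart.

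Btc encodes a ligand that binds EGFR and ERBB4. Its cumulus levels were 3.14, 3.62 and 2.05 CPM at 0 h, 938, 996 and 564 CPM at 4 h, and 298, 237 and 234 CPM at 12 h. Its mural levels were 2.38, 2.29 and 2.71 CPM at 0 h, 1473, 2094 and 1488 CPM at 4 h, and 71.1, 67.1 and 67.6 CPM at 12 h. The cell types overlapped at 0 h alone; mural libraries were the higher ones at 4 h and the lower ones at 12 h. The rise at 4 h was 8.14 ± 0.28 in cumulus and 9.42 ± 0.29 in mural cells on the log2 scale (adjusted p = 1.67e-13 in mural cells). Between 4 and 12 h Btc fell by 1.70 ± 0.21 in cumulus and by 4.62 ± 0.23 in mural cells.

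Epgn encodes epigen, a ligand that binds EGFR with low affinity. The cumulus libraries held 2, 10 and 0 counts of it at 0 h, then 11.2, 8.62 and 5.62 CPM at 4 h and 20.1, 12.8 and 15.5 CPM at 12 h. The mural libraries held 0.137, 0.0504 and 0.262 CPM at 0 h, then 95.8, 168 and 113 CPM at 4 h and 10.8, 13.3 and 10.3 CPM at 12 h. Mural libraries of 4 h thus stood far above all others, and at 0 h and at 12 h the cell types overlapped. Epgn rose by 6.49 ± 0.51 at 4 h and 7.41 ± 0.51 at 12 h in cumulus cells, and by 9.65 ± 0.49 and 6.19 ± 0.47 in mural cells. These sizes depend on the few counts of 0 h: without replicate 2 of the cumulus cells at 0 h the cumulus rises were 8.24 and 9.13, and without replicate 3 the rise at 12 h was 6.82. Without replicate 3 of the mural cells at 0 h the mural rises were 10.25 and 6.83. In cumulus cells the further rise from 4 h to 12 h was 0.92 ± 0.32 (adjusted p = 0.018). It lost its call without replicate 3 of 4 h (0.66, adjusted p = 0.0892) or without replicate 1 of 12 h (0.74, adjusted p = 0.082).

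**Figure D2:**
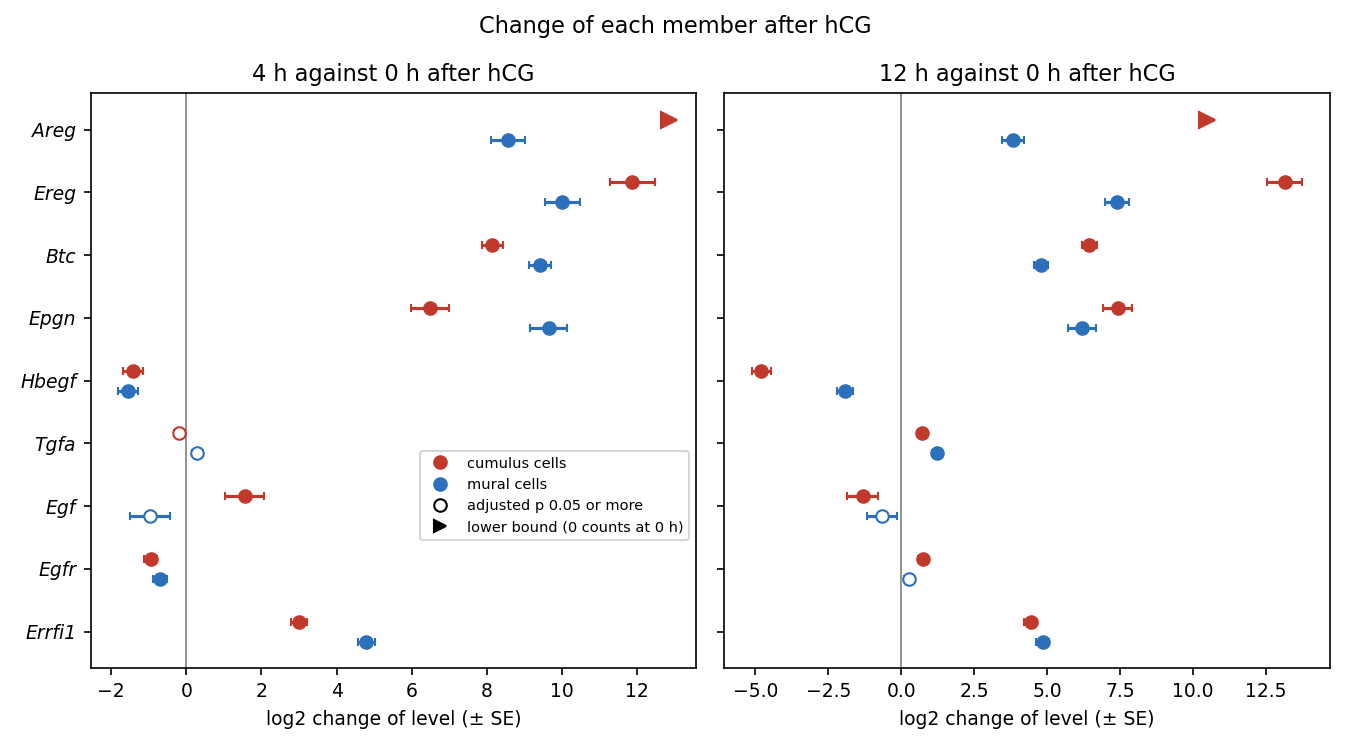
Log2 change ± SE of each gene at 4 h (left panel) and 12 h (right panel) against 0 h, with cumulus cells in red above mural cells in blue, open points where the adjusted p is 0.05 or more and triangles for the lower bound of Areg in cumulus cells, from group means. The 4 genes of the chromosome 5 cluster and Errfi1 lie to the right of 0 in both cell types and Hbegf to the left.

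Hbegf encodes a ligand that binds heparan sulfate as well as the receptor, and it moved the other way. Levels in cumulus cells were 8.93, 7.40 and 7.74 CPM at 0 h, 3.43, 3.10 and 2.50 CPM at 4 h, and 0.443, 0.147 and 0.264 CPM at 12 h. Levels in mural cells were 11.3, 9.80 and 15.1 CPM at 0 h, 3.46, 3.55 and 5.35 CPM at 4 h, and 3.12, 3.25 and 3.16 CPM at 12 h. In both cell types the 3 times did not overlap, and the cumulus libraries of 12 h were the lowest of all 18. Hbegf fell by 1.41 ± 0.27 in cumulus (adjusted p = 0.000274) and by 1.55 ± 0.27 in mural cells (adjusted p = 0.000116) at 4 h, and by 4.80 ± 0.33 and 1.92 ± 0.27 at 12 h.

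Tgfa encodes a ligand that, like EGF, binds EGFR alone, and its log2 group means spanned the least among the ligands (1.23). Cumulus cells held 20.5, 19.1 and 16.6 CPM of Tgfa at 0 h, 17.0, 20.5 and 11.8 CPM at 4 h, and 33.2, 28.1 and 30.9 CPM at 12 h. Mural cells held 16.8, 17.0 and 15.8 CPM at 0 h, 22.0, 19.7 and 19.1 CPM at 4 h, and 37.6, 40.1 and 37.3 CPM at 12 h. The 6 libraries of 12 h lay above the other 12. Tgfa rose by 0.71 ± 0.15 in cumulus (adjusted p = 0.000501) and by 1.21 ± 0.15 in mural cells at 12 h, while the log2 differences at 4 h, -0.19 ± 0.15 and 0.29 ± 0.15, did not pass (adjusted p = 0.312 and 0.129).

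Egf encodes the ligand that gives the family its name. The cumulus values of Egf were 1.67, 3.20 and 3.36 CPM at 0 h, 5.81, 2.37 and 16.0 CPM at 4 h, and 1.74, 0.821 and 0.740 CPM at 12 h. The mural values were 1.39, 2.22 and 2.69 CPM at 0 h, 0.932, 1.05 and 1.23 CPM at 4 h, and 1.32, 1.28 and 1.37 CPM at 12 h. The cumulus libraries of 4 h were in the same order as their oocyte marker sums of 2635, 1383 and 8371 CPM, and the lowest of them lay within the range of 0 h. Egf was called higher at 4 h than at 0 h in cumulus cells (1.55 ± 0.51, adjusted p = 0.0179). It was not called without replicate 3 of 4 h (0.58, adjusted p = 0.296), without replicate 1 of 0 h (1.29, adjusted p = 0.0767) or without both (0.33, adjusted p = 0.573). At 12 h it was called lower than at 0 h in cumulus cells (-1.32 ± 0.52, adjusted p = 0.0358), a call lost without replicate 2 or 3 of 0 h or replicate 2 or 3 of 12 h (-1.23 to -1.09). It was also lower at 12 h than at 4 h there (-2.87 ± 0.54; -1.94 without replicate 3 of 4 h). In mural cells the changes of -0.96 ± 0.53 at 4 h and -0.66 at 12 h did not pass (adjusted p = 0.152 and 0.347). The part of oocyte RNA in the Egf values was not tested.

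**Figure D3:**
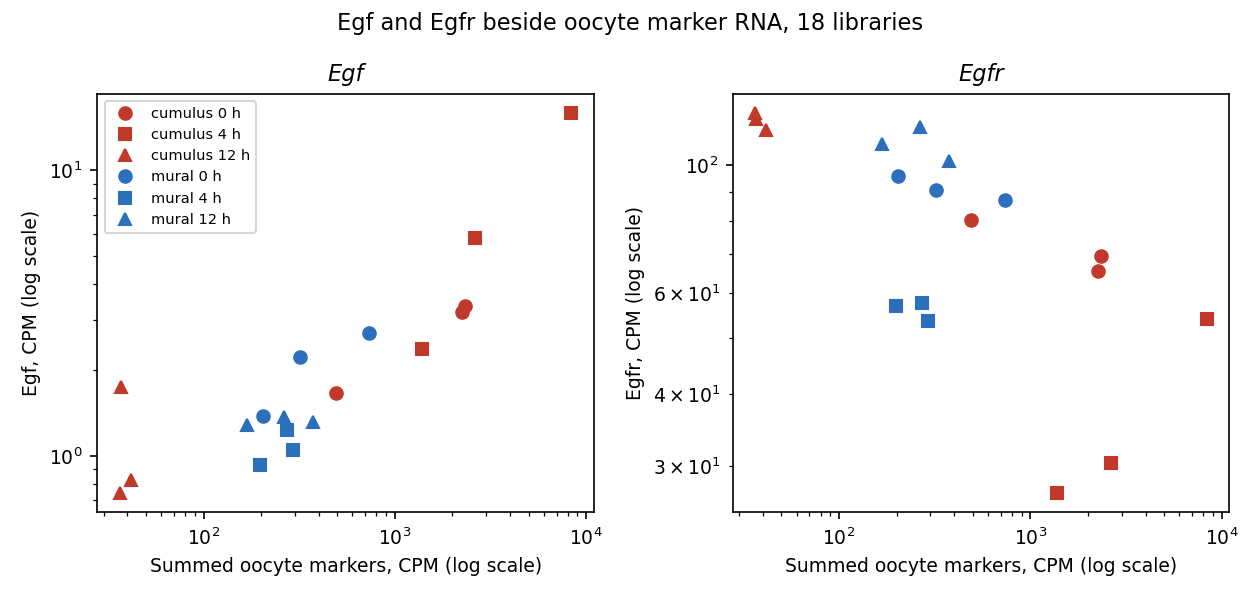
Egf (left panel) and Egfr (right panel) against the summed level of 15 oocyte markers in each of the 18 libraries, in CPM on log axes, with cumulus cells in red and mural cells in blue. Replicate 3 of the cumulus cells at 4 h has the highest marker sum, 8371 CPM, and the highest Egf, 16.0 CPM, and the 3 cumulus libraries of 12 h have the lowest marker sums.

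Egfr, the receptor, fell at 4 h in both cell types and was higher again at 12 h. Receptor RNA in cumulus cells was at 80.2, 65.4 and 69.7 CPM at 0 h, 30.4, 26.9 and 54.1 CPM at 4 h, and 121, 115 and 124 CPM at 12 h. Receptor RNA in mural cells was at 95.8, 90.5 and 87.2 CPM at 0 h, 56.9, 53.7 and 57.6 CPM at 4 h, and 102, 109 and 117 CPM at 12 h. Within each cell type no library of 4 h reached the other times and those of 12 h were above those of 0 h. At 4 h Egfr fell by 0.95 ± 0.18 in cumulus cells (adjusted p = 0.000243) and by 0.70 ± 0.18 in mural cells (adjusted p = 0.00323) on the log2 scale. The cumulus library of 4 h with the most oocyte RNA, replicate 3, was the highest of its group in Egfr, and the part of that RNA in the level was not tested. At 12 h Egfr was higher than at 0 h in cumulus cells (0.74 ± 0.18, adjusted p = 0.00135), and in mural cells the difference of 0.26 did not pass (adjusted p = 0.266). From 4 h to 12 h it rose by 1.69 ± 0.18 in cumulus and by 0.96 ± 0.18 in mural cells.

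Errfi1, whose product binds the active receptor kinase and blocks it, rose at 4 h like the ligands of the cluster and, in contrast to them, was not called lower in mural cells at 12 h than at 4 h. Cumulus libraries contained 16.5, 23.4 and 21.3 CPM of Errfi1 at 0 h, 133, 196 and 163 CPM at 4 h, and 569, 314 and 445 CPM at 12 h. Mural libraries contained 17.6, 20.8 and 20.1 CPM at 0 h, 463, 657 and 502 CPM at 4 h, and 553, 638 and 492 CPM at 12 h. Mural libraries of 4 and 12 h overlapped, while cumulus libraries of 12 h all lay above those of 4 h. Errfi1 rose by 3.01 ± 0.22 at 4 h and by 4.44 ± 0.23 at 12 h in cumulus cells, and by 4.79 ± 0.23 and 4.85 ± 0.23 in mural cells (adjusted p = 2.97e-11 at 4 h). The log2 difference of 12 h against 4 h was 1.43 ± 0.20 in cumulus cells, which was called, and 0.05 ± 0.20 in mural cells, which was not (adjusted p = 0.88).

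Over the 9 genes and against all 19941 genes tested, the counts of calls were as follows. In cumulus cells at 4 h against 0 h, 8 of the 9 were called, where 47.8% of all genes were: 6 were higher, beside 25.0% of all genes, and 2 lower, beside 22.8%. In mural cells at 4 h it was 7 beside 45.1%, with 5 higher (22.8% of all genes) and 2 lower (22.3%). At 12 h against 0 h all 9 were called in cumulus cells beside 64.2%, with 7 higher (31.2%) and 2 lower (32.9%). In mural cells at 12 h it was 7 beside 40.7%, with 6 higher (21.6%) and 1 lower (19.0%). For 12 h against 4 h, 9 were called in cumulus cells beside 60.5%, with 5 higher (29.2%) and 4 lower (31.3%). In mural cells it was 6 beside 34.5%, with 2 higher (18.3%) and 4 lower (16.1%). Shares of all genes this large leave the counts of little weight. The median log2 change of the 9 genes at 4 h was 3.01 in cumulus and 4.79 in mural cells, where the medians of all genes were 0.13 and -0.06.

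Set against each other at 0 h, cumulus and mural cells differed in 2 of the 9 genes, where 46.8% of all genes were called. None of the 9 was higher (21.5% of all genes) and 2 were lower (25.3%) in cumulus cells. Areg in cumulus cells was at least 46.5-fold lower by the group means (adjusted p = 7.67e-05), and Ereg was lower, with 4 counts in 3 cumulus libraries against 0.677 to 1.01 CPM in mural libraries (log2 -4.55 ± 0.87, adjusted p = 0.000394). The Ereg value was -3.90 without replicate 2 of the cumulus cells and had no fold without replicate 1. For Hbegf (-0.59 ± 0.26, adjusted p = 0.0707) and Egfr (-0.35 ± 0.17, adjusted p = 0.114) the difference did not pass.

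At 4 h 7 of the 9 genes differed, where 54.5% of all genes did: cumulus cells had less of 6, beside 27.0% of all genes lower, and more of 1, beside 27.6% higher. Epgn was lower by 3.88 ± 0.34 on the log2 scale, Ereg by 2.69 ± 0.32, Errfi1 by 1.72 ± 0.20, Areg by 1.25 ± 0.31, Btc by 1.02 ± 0.20 and Egfr by 0.59 ± 0.18 (adjusted p = 0.00891 for Egfr). The Areg difference lost its call without replicate 3 of the cumulus cells (adjusted p = 0.0591) and the Egfr difference with the libraries of 4 h fitted alone (adjusted p = 0.126). Egf was higher in cumulus cells by 2.90 ± 0.54, and by 2.0 without replicate 3.

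At 12 h the cell types stood the other way round in 3 ligands. Cumulus cells had more Btc (1.90 ± 0.21, adjusted p = 1.43e-06), Ereg (1.19 ± 0.30, adjusted p = 0.00461) and Areg (1.12 ± 0.32, adjusted p = 0.0118) than mural cells and less Hbegf (-3.47 ± 0.32, adjusted p = 1.94e-07), beside 18% of all genes higher and 20.5% lower. These 4 of the 9 genes stand beside 38.5% of all genes called. The Areg difference lost its call without replicate 1 of the cumulus cells (0.94, adjusted p = 0.0556) or replicate 3 of the mural cells (1.04, adjusted p = 0.0542). Errfi1 (-0.34, adjusted p = 0.188) and Egfr (0.13, adjusted p = 0.579) did not pass at this time.

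The change since 0 h was itself compared between the cell types. At 4 h 5 of the 9 genes passed, where 14.0% of all genes did, 2 with the larger change in cumulus cells (6.78% of all genes) and 3 with the smaller (7.26%). The rise was smaller in cumulus than in mural cells for Errfi1 (log2 difference of the changes -1.79 ± 0.29, adjusted p = 0.000424), Btc (-1.27 ± 0.31, adjusted p = 0.0112) and Epgn (-3.16 ± 0.97, adjusted p = 0.0391), and Egf differed by 2.51 ± 0.73 (adjusted p = 0.0291). Areg passed as well (adjusted p = 0.007) with no fold, since the cumulus group of 0 h had no count. Of the 20 alternatives tried, the Errfi1 difference was called in 20, Btc in 18, Areg in 17, Egf in 10 and Epgn in 7. The Areg, Egf and Epgn calls were lost with single libraries left out, among other settings: without replicate 3 of the cumulus cells at 4 h Areg had an adjusted p of 0.0645 and Egf of 0.0747 (difference 1.58), and without replicate 2 of the cumulus cells at 0 h the Epgn difference was -1.36 (adjusted p = 0.663). Without that replicate 3, Egfr was called instead, with a fall that was deeper in cumulus cells (-0.58, adjusted p = 0.00159), against -0.25 with all libraries. At 12 h 4 passed, where 40.1% of all genes did, 3 upward (20.1%) and 1 downward (20.0%). Areg (adjusted p = 3.56e-05, with no fold), Ereg (5.75 ± 0.90, adjusted p = 8.19e-05) and Btc (1.65 ± 0.32, adjusted p = 0.000515) had changed more upward in cumulus than in mural cells, and Hbegf more downward (-2.88 ± 0.41, adjusted p = 3.1e-05). The Ereg value was 5.07 without replicate 2 of the cumulus cells at 0 h and has no fold without replicate 1.

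Levels of different ligands were compared per kb of exon, since the exons of Areg span 1215 bases and those of Egf 11275. On this scale (CPM per kb) the 7 ligands summed to 5.50 ± 0.521, 364 ± 94.5 and 172 ± 41.9 in cumulus cells at 0, 4 and 12 h and to 6.93 ± 0.334, 981 ± 389 and 73.4 ± 5.18 in mural cells (SD, n = 3 each). At 0 h Tgfa held 52.5% of the sum in cumulus and 36.9% in mural cells, and Hbegf 30.3% and 35.8%. At 4 h Btc held 50.3 ± 4.17% in cumulus and 39.7 ± 6.50% in mural cells, and Areg 38.7 ± 3.90% and 32.5 ± 5.98%. The shares of Btc and Areg did not overlap in cumulus libraries (47.2 to 55.1% and 34.3 to 41.6%). In mural libraries these shares overlapped (32.4 to 44.9% and 27.8 to 39.2%). The levels of Btc and Areg overlapped in both cell types. At 12 h Ereg held the largest mean share in both, 42.6 ± 4.02% in cumulus and 44.4 ± 1.17% in mural cells, followed by Btc with 33.4 ± 3.57% and 20.8%. The shares of Ereg and Btc did not overlap in cumulus libraries (39.5 to 47.1% and 29.9 to 37.0%) or in mural libraries. Their levels overlapped in cumulus but not in mural cells. So the make-up passed from Tgfa and Hbegf at 0 h to Btc and Areg at 4 h and to Ereg and Btc at 12 h. These are shares of RNA and not of released ligand. The ratio of summed ligand RNA to Egfr RNA, both per kb, averaged 0.872, 129 and 16.3 in cumulus cells at 0, 4 and 12 h. In mural cells this ratio averaged 0.863, 200 and 7.64. At 4 h it spanned 55.3 to 191 in cumulus and 145 to 301 in mural libraries, so the cell types overlapped. At 12 h it spanned 13.9 to 20.7 and 6.70 to 8.22. Replicate 3 of the cumulus cells at 4 h had the highest Egfr of its group, and no ratio without it was computed.

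**Figure D4:**
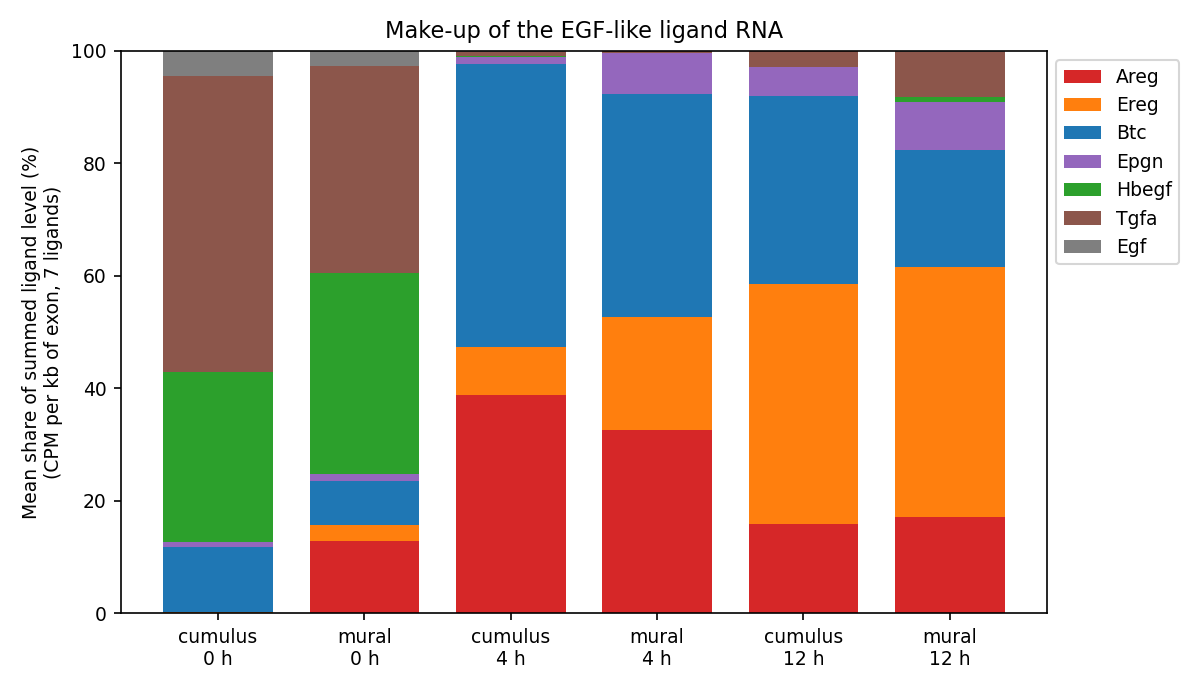
Mean share of each of the 7 ligands in the summed ligand level (percent of CPM per kb of exon, n = 3 libraries a bar), with cumulus cells left of mural cells at 0, 4 and 12 h after hCG. Tgfa and Hbegf fill most of the bars of 0 h, Btc and Areg those of 4 h, and Ereg has the largest share of both bars of 12 h.

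Other genes of the receptor's pathway are given by lists from textbook knowledge, with counts of called genes and list medians of log2 changes. The lists were chosen with earlier results of these data known. At 4 h against 0 h, 25.0% of all genes were higher and 22.8% lower in cumulus cells, and 22.8% higher and 22.3% lower in mural cells, with medians of 0.13 and -0.06. At 12 h against 0 h, 31.2% were higher and 32.9% lower in cumulus cells, and 21.6% higher and 19.0% lower in mural cells, with medians of -0.09 and -0.05. Of 10 genes for shedding of ligands, 4 were higher and 1 lower in each cell type at 4 h (medians 0.50 in cumulus and 0.33 in mural cells). Rhbdf2, which carries the protease ADAM17 to the cell surface, rose by 2.64 ± 0.11 in cumulus and by 2.68 ± 0.11 in mural cells at 4 h, and was at 33.6, 210 and 327 CPM in cumulus and 47.3, 304 and 270 CPM in mural cells at 0, 4 and 12 h. Adam17 itself, the protease that releases amphiregulin and epiregulin, was not called at 4 h (0.08 in cumulus and 0.10 in mural cells, adjusted p = 0.567 and 0.486) and was higher at 12 h (0.63 ± 0.11 in cumulus and 0.54 ± 0.11 in mural cells). At 12 h 8 shedding genes were higher and 2 lower in cumulus cells, and 7 higher and none lower in mural cells (medians 1.72 in cumulus and 0.87 in mural cells), among them Timp3, an inhibitor of these proteases (5.16 ± 0.31 in cumulus and 0.91 in mural cells).

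Of the 7 other ERBB receptor and neuregulin genes, 2 were higher and 2 lower in each cell type at 4 h (medians 0.53 in cumulus and 0.05 in mural cells), close to the shares of all genes. The 2 called higher in cumulus cells, Nrg1 and Nrg3, had libraries of 4 h that overlapped those of 0 h. At 12 h 1 was higher and 4 lower in cumulus cells, and none higher and 1 lower in mural cells (medians -1.70 in cumulus and -0.11 in mural cells). Erbb2, which pairs with EGFR, fell in cumulus cells at 4 h (-0.64 ± 0.14, adjusted p = 0.00121) and was not called in mural cells (0.05, adjusted p = 0.808). Erbb3 rose in cumulus cells at 12 h (2.45 ± 0.31) and fell in mural cells at 4 h (-1.51 ± 0.31). The neuregulins, ligands of ERBB3 and ERBB4, differed among themselves: Nrg2 fell at 4 h by 4.27 ± 0.38 in cumulus cells, and Nrg3 rose by 5.23 ± 0.41 in mural cells, to a mean of 29.3 CPM.

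Beside Errfi1, the list for turnover and inhibition of the receptor had 7 of 12 genes tested higher and 1 lower in cumulus cells and 5 higher and 2 lower in mural cells at 4 h (medians 0.51 in cumulus and 0.20 in mural cells). Cblb, a ubiquitin ligase that sends the receptor to degradation, rose by 2.44 ± 0.19 in cumulus and 2.73 ± 0.19 in mural cells, and Sh3kbp1, an adaptor of that ligase, fell by 0.86 in cumulus and by 1.54 ± 0.11 in mural cells. Among 17 adaptor, RAS, RAF, MEK and ERK genes, 9 were higher and 2 lower in each cell type at 4 h (medians 0.35 in cumulus and 0.32 in mural cells). Among them the adaptor gene Grb2 rose by 1.01 in cumulus and 1.04 in mural cells, and Sos2, which loads RAS with GTP, by 0.99 in cumulus and 2.03 ± 0.12 in mural cells. The largest called change of this list in cumulus cells was a fall, that of Gab1 by 1.10 ± 0.14. In mural cells Gab1 averaged 64.7 CPM at 0 h and 35.7 CPM at 4 h. Of 10 genes for feedback on ERK, 8 were higher and none lower in each cell type at 4 h (medians 2.70 in cumulus and 1.75 in mural cells), led by the phosphatase genes Dusp4 (8.52 ± 0.43 in cumulus and 5.64 ± 0.35 in mural cells) and Dusp6 (6.82 ± 0.37 in cumulus and 4.57 ± 0.31 in mural cells). Of 7 known targets in cumulus expansion, 5 rose in cumulus and 6 in mural cells at 4 h and none fell (medians 8.24 in cumulus and 7.22 in mural cells), with Ptgs2, which makes prostaglandins, up by 11.76 in cumulus and 11.47 in mural cells. These lists were counted and not tested as sets.

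**Figure D5:**
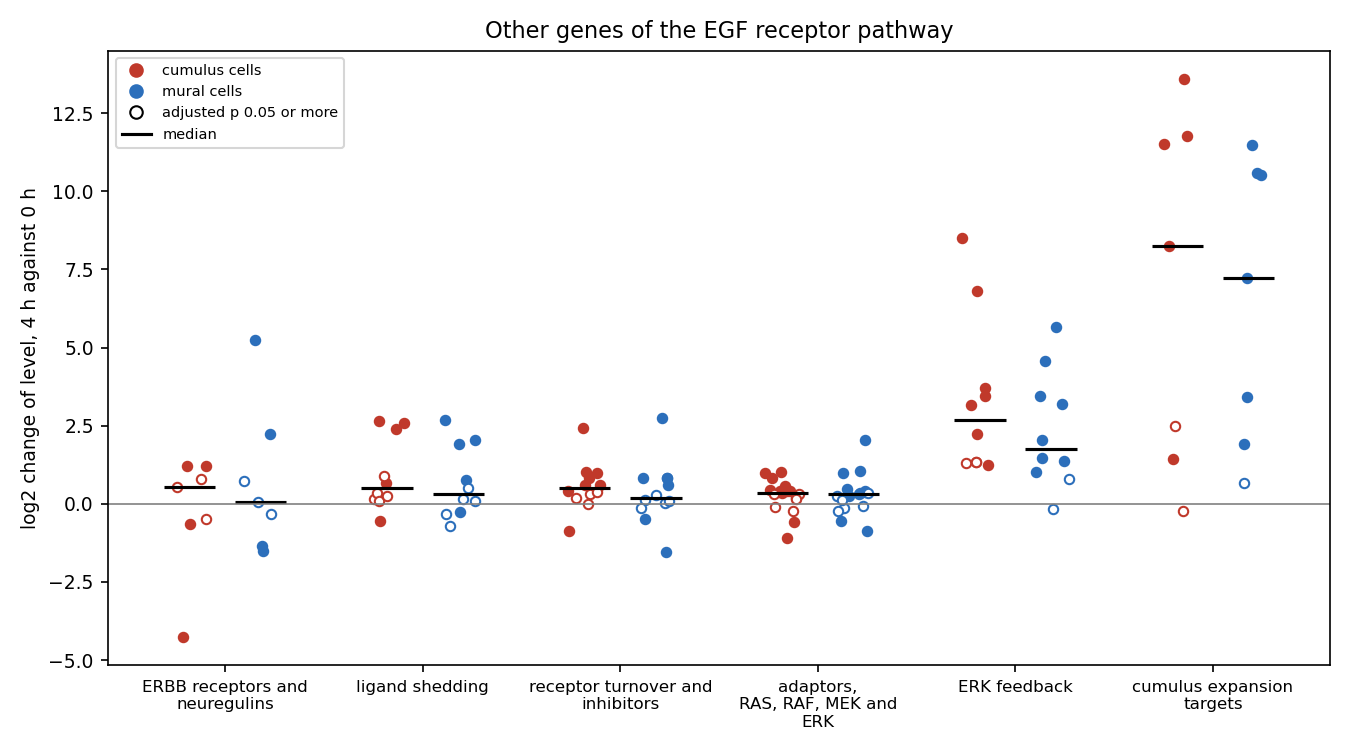
Log2 change at 4 h against 0 h of each tested gene on 6 lists of the receptor's pathway, with cumulus cells in red and mural cells in blue and bars at list medians. The lists for ERK feedback (medians 2.70 in cumulus and 1.75 in mural cells) and cumulus expansion targets (8.24 and 7.22) lie highest, and the other 4 have medians of 0.05 to 0.53.

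Of 7 tested protein-coding neighbours within 300 kb of the ligand cluster, 5 were higher at 4 h in each cell type, where 25.0% of all genes were higher in cumulus and 22.8% in mural cells. Parm1, next to Btc, rose by 2.95 ± 0.16 in cumulus and by 3.04 ± 0.16 in mural cells, and Mthfd2l, on the other side of the cluster, by 0.75 ± 0.13 and 1.52 ± 0.13. Both rises were below those of the 4 ligands of the cluster in the same cells, and no test compared them. The chemokine genes Cxcl5, Cxcl3 and Cxcl1 rose too, and Pf4 and Cxcl2 were not called. At 12 h Parm1 was lower in cumulus than in mural cells (241 and 619 CPM, log2 -1.36), where Areg, Ereg and Btc were higher.

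The genes whose pattern over the 6 group means was most like a member's were sought among 12119 genes, by the mean absolute difference of centred log2(CPM + 0.5) means, for the 6 members whose means spanned at least 3. Btc was nearest to Areg and Areg to Btc (0.45, where the median over all candidates was 2.92 for Areg). Slc5a7, the choline transporter gene, was next for Areg (0.51) and first for Epgn (0.52), and Sema4f was the second for Btc (0.62). Slc5a7 was at 0.166, 38.3 and 21.9 CPM in cumulus and 0.539, 205 and 9.79 CPM in mural cells at 0, 4 and 12 h. Nearest to Ereg was Egr3 (0.50), a transcription factor gene, with 146 and 243 CPM in cumulus and 366 and 54.6 CPM in mural cells at 4 and 12 h. Hbegf was nearest to Strip2 (0.16), and Errfi1 to a, the agouti gene, and Vsig8 (0.27 each). Tgfa, Egf and Egfr spanned less, 1.23, 2.11 and 1.74.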

How the data were processed

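PolyA-enriched RNA of cumulus and mural cells was sequenced on an Illumina NovaSeq, per the series' design text, from RNeasy Micro and Mini kit extracts and a stranded mRNA kit, per the labels. The deposited values are the authors' raw counts of uniquely mapped reads per gene, made in CLC Genomics Workbench with default settings, per the design text. The build is GRCm38, per the submitters' processing notes, while the sources used here do not give the CLC version, its annotation or its strand setting. Of the 41325 entries, 40826 names occur in GENCODE M21, from which exon lengths and positions were taken.

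The tests used edgeR 4.0.16 in R 4.3.3. filterByExpr (minimum count 10) left 19941 genes with 99.96% of the counts, TMM factors were 0.849 to 1.177, and 1 robust quasi-likelihood fit over 18 libraries with a mean for each of 6 groups gave 11 comparisons. Every adjusted p printed comes from the edgeR quasi-likelihood test, adjusted by Benjamini and Hochberg's method over all genes tested (threshold 0.05), unless another tool is named. The fit was also run on counts simulated for cumulus cells at 4 h against 0 h, with the spread per gene estimated from these data. Such counts hold no libraries that stand apart, so this run cannot tell how the fit handles them. Levels are mean CPM with SD over 3 libraries. Alternatives were other scalings, no filter, DESeq2 1.42.0, limma 3.58.1 voom, only the groups compared, a replicate block, and libraries left out. The labels do not say whether the libraries of a group came from separate animals, so the p-values speak of the spread between these libraries alone, and that spread may be technical. It exceeded counting error in every pair (chi-square per degree of freedom at least 7.93) and was widest in cumulus cells at 4 h (up to 260). Floors cover counting error only.

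The members and all lists were chosen with earlier results of these data known. Named list genes were taken from those called with the largest changes and at least 5 CPM on average in the group with more. That rule gave at most 2 genes a list and comparison, and not all of them are named. Adam17, Rhbdf2, Erbb2 and Erbb3 were named whatever they did. Timp3, Grb2 and the neighbours of the ligand cluster were chosen for their role or place, and Timp3 and Grb2 also met the rule on size. The most similar genes were the 3 nearest of those with at least 5 CPM in the highest group.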

Additional observations from a re-analysis of the deposited data

Results flagged for a closer look

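For 5 genes the change from 0 to 4 h differed between cumulus and mural cells by edgeR's test of the difference itself: Areg (adjusted p = 0.007), Btc (adjusted p = 0.0112), Epgn (adjusted p = 0.0391), Egf (adjusted p = 0.0291) and Errfi1 (adjusted p = 0.000424). Errfi1 and Btc rose less in cumulus than in mural cells, by 1.79 ± 0.29 and 1.27 ± 0.31 on the log2 scale less, and Egf was called higher in cumulus cells alone. For 4 genes the change from 0 to 12 h differed: Areg (adjusted p = 3.56e-05), Ereg (adjusted p = 8.19e-05), Btc (adjusted p = 0.000515) and Hbegf (adjusted p = 3.1e-05). Areg and Btc are in both sets, and for Btc the sign turned, with a log2 difference of -1.27 ± 0.31 at 4 h and of 1.65 ± 0.32 at 12 h. The 4 h differences of Epgn and Egf were called in 7 and 10 of the 20 alternatives tried, those of Areg, Btc and Errfi1 in 17, 18 and 20. The comparisons share the libraries of 0 h.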

How the results depend on the processing

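Of 1457 member changes recomputed under the alternatives, 1365 kept their direction and their side of the threshold, 52 lost the call, 33 gained it and 7 changed sign. None of the 7 was called in either fit: Tgfa in mural cells at 4 h with library totals (-0.028), Tgfa in cumulus cells at 4 h without replicate 3 of 4 h (0.0062; single libraries left out gave -0.38 to 0.0062) and without both libraries that stand apart (0.068), Errfi1 in mural cells at 12 h against 4 h without replicate 1 of 4 h (-0.037) or replicate 2 of 12 h (-0.048; range -0.048 to 0.20), Errfi1 in cumulus against mural cells at 0 h without replicate 2 of the cumulus cells (-0.028; range -0.028 to 0.19), and the Hbegf difference of changes at 4 h without replicate 3 of the mural cells at 0 h (-0.026; range -0.026 to 0.39). The cause was not tested.

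The number of members whose change to 4 h differed between the cell types, 5, was 1 with limma voom weighted by group, 2 with only the groups compared, 3 without both libraries that stand apart and 3 to 5 with single libraries left out. Cumulus and mural cells at 0 h differed in 2 members, and in 4 with only the groups compared and without both libraries. With single libraries left out, the counts were 7 to 9, 8 to 9 and 8 to 9 in cumulus cells (4 h and 12 h against 0 h, 12 h against 4 h), 7, 7 and 6 in mural cells, 2, 6 to 8 and 3 to 4 between the cell types at 0, 4 and 12 h, and 4 to 5 for the difference of changes at 12 h. With limma voom, the differences of changes of Areg (adjusted p = 0.52 at 4 h and 0.167 at 12 h), Btc at 4 h (0.15) and Ereg at 12 h (0.248) were not called. Between the cell types at 0 h it called Hbegf (adjusted p = 0.0154) and Egfr (0.0148) and neither Areg (0.229) nor Ereg (0.341). The Btc difference at 4 h was also lost with only the groups compared (edgeR adjusted p = 0.0538).

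Scaled by library totals and not by TMM, the median log2 change of all genes moved by -0.32 (mural cells, 4 h against 0 h) to 0.18 (difference of changes at 4 h). The share of called genes that were higher was then 29.1% in place of 50.6% for mural cells at 4 h, 39.9% in place of 53.2% at 12 h and 66.8% in place of 53.2% for 12 h against 4 h. For cumulus cells it was 41.0% in place of 52.3% at 4 h and 38.1% in place of 48.7% at 12 h. For cumulus against mural cells at 12 h it was 35.6% in place of 46.7%, and for the difference of changes at 4 h 69.3% in place of 48.3%.

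Of 45 pairs of same-numbered libraries of different groups, 14 had correlated deviations over 0.1 (-0.493 to 0.555, mean 0.065), and of 90 pairs with other numbers 12 had (mean -0.035). Of 18 libraries, 10 correlated best with one of their own number, a hint from the data and not from the design. Since not every pair was over 0.1 and the labels name no shared animal or day, the numbers were not taken to pair the samples. With the replicate number as a block, 4 members in place of 5 were called for the difference of changes at 4 h (Epgn lost, adjusted p = 0.0544), and the other counts were the same as without it: 8, 9 and 9 in cumulus cells, 7, 7 and 6 in mural cells, 2, 7 and 4 between the cell types and 4 for the difference at 12 h. Depth limits Areg, Ereg and Epgn at 0 h, where libraries held few or no counts.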
